A study of Oryctolagus cuniculus with 4 samples.

Results

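Of the 13 proteins encoded by mammalian mitochondrial DNA, those outside complex I are described here: the COX1, COX2 and COX3 subunits of complex IV, the ATP6 and ATP8 subunits of complex V, and CYTB of complex III. These 6 genes were taken from 29587 listed genes, of which 37 lie on the mitochondrial sequence and 15 of those are at least 200 bases long. The files name no gene. The 15 genes were sorted by start position and given the names of the conserved mammalian order, and the members are positions 5 to 9 and 15 of that order. Strand and length were checked against those names: 14 of the 15 genes lay on the plus strand, with position 14, the place of ND6, on the other, and position 7, the place of ATP8, held the shortest gene, which overlaps the next. The RefSeq gene table used for names comes from another rabbit assembly and paired 0 of the identifiers with a symbol, so the names of the members rest on order, length and strand.

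The cells were tendon stem/progenitor cells, a dividing precursor population of tendon, from New Zealand White rabbits. The PRP group was cultured in medium holding platelet-rich plasma at 10% (v/v), a platelet concentrate rich in growth factors; the noPRP group had medium without it, and each had 2 libraries. Nothing in the labels ties a library to its own animal or culture, so every p-value measures only the spread between these libraries, which may be technical. The identity of the cells could not be checked against tendon markers or those of other cell types, because the identifiers carry no symbols. In RNA from whole cultures, a different mix of cells and a different amount of transcript per cell cannot be told apart.

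Mitochondrial DNA is transcribed into long precursors that carry many genes in a row. Transfer RNAs between the coding genes are cut out, which frees most of the messenger RNAs, while ATP8 and ATP6 overlap and stay on a shared messenger. Complex III passes electrons from ubiquinol to cytochrome c, complex IV passes them from cytochrome c to oxygen, and complex V uses the resulting proton gradient to make ATP. Each of these complexes also needs many subunits encoded in the nucleus.

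Library totals ranged from 20100175 to 24064713 counted reads, and mitochondrial genes held 1.72% to 2.88% of them. Scaling factors from the trimmed mean of M values (TMM) lay between 0.9997 and 1.09 in 3 libraries and at 0.842 in PRP replicate 2. That library also had a count for 17499 genes, against 15796 to 15981 in the others.

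On the mitochondrial sequence (MT) of the OryCun2.0 assembly, 5 members lie in a row and CYTB lies apart. COX1 spans positions 5354 to 6895 (1542 bases), COX2 7039 to 7722 (684 bases), ATP8 7796 to 7999 (204 bases), ATP6 7957 to 8636 (680 bases) and COX3 8637 to 9420 (784 bases). CYTB spans 14175 to 15313 (1139 bases). All 6 are on the plus strand and have 1 exon. COX1, COX2 and ATP8 are whole numbers of codons long (514, 228 and 68), whereas ATP6, COX3 and CYTB end with 2, 1 and 2 bases over, the form of mitochondrial genes whose stop codon is completed by the poly(A) tail. ATP8 and ATP6 share 43 bases, which are 43 of the 204 bases of ATP8. ATP6 and COX3 touch with 0 bases between them, and no transfer RNA gene separates them.

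**Figure D1:**
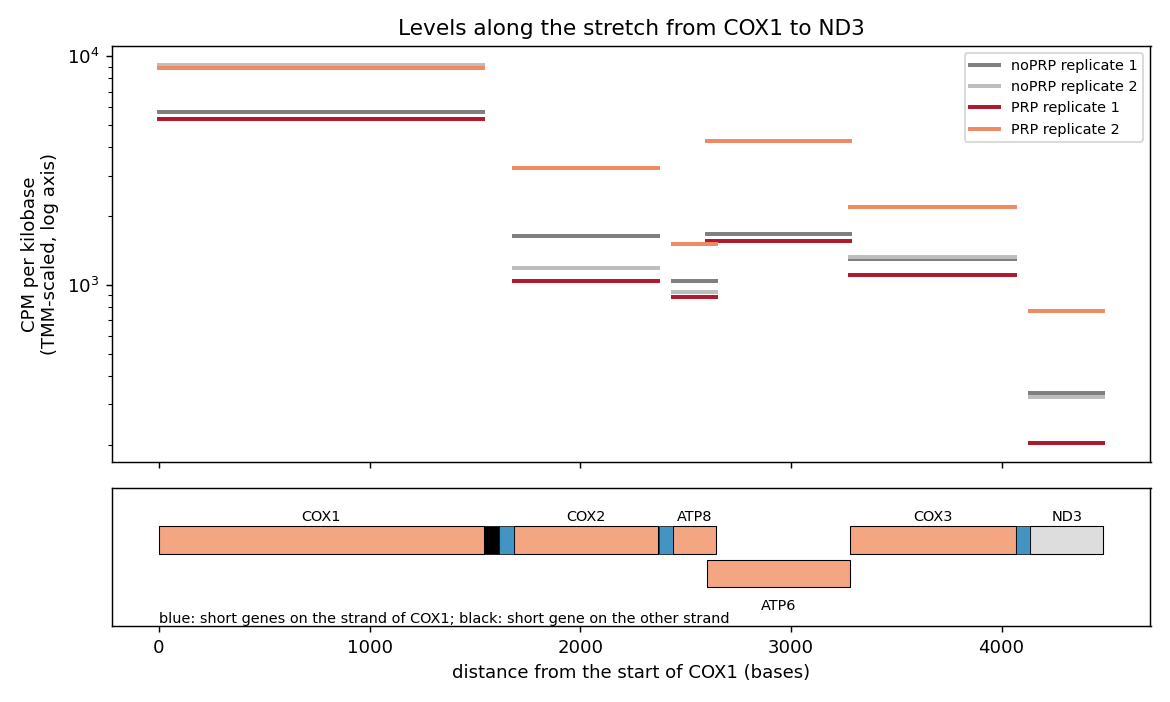
Upper panel: level of each gene (CPM per kilobase, TMM-scaled, log axis) against distance from the start of COX1 in bases, 1 line per library; lower panel: the genes of the same stretch, members in orange and ND3 in grey. COX1 lies above the other genes in every library, and PRP replicate 2 is the highest library at COX2, ATP8, ATP6, COX3 and ND3 but not at COX1, where noPRP replicate 2 is at 9164.

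COX1, which carries the site where complex IV reduces oxygen, was the most abundant member by a wide margin. Its counts were 192761 and 321376 in noPRP replicates 1 and 2, then 196340 and 274315 in PRP replicates 1 and 2. The second replicate was the higher library in both groups, and the groups overlapped. Scaled for library and length, COX1 was at 7424 ± 2461 CPM per kilobase in noPRP and 7079 ± 2526 in PRP (SD, n = 2 each), where CPM is the count scaled to a common library size. By average abundance it ranked 4 among all 12707 tested genes, on a scale that does not divide by length. It took 0.959% (95% Wilson interval 0.9548 to 0.9633) and 1.53% (1.529 to 1.539) of all counts in the noPRP libraries. In the PRP libraries its share was 0.816% (0.8123 to 0.8195) and 1.15% (1.147 to 1.155). These intervals take each counted read as independent and leave out all but counting error. Both ends of a pair were counted, so the intervals are too narrow even for that. The gap between replicates lies far outside them.

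COX2, which receives electrons from cytochrome c, was counted 24483 and 18409 times in noPRP, and 17139 and 44453 times in PRP. Its lowest and its highest library were both PRP libraries. The level was 1406 ± 314 CPM per kilobase in noPRP and 2140.1 ± 1554 in PRP (SD, n = 2 each). COX3, the remaining mitochondrially encoded core subunit of complex IV, was counted 22474 and 23515 times in noPRP, and 20773 and 34435 times in PRP. Its noPRP libraries were close together, at 1304 and 1319 CPM per kilobase, and lay between the PRP libraries, at 1101 and 2189.

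ATP6, which forms part of the proton channel of ATP synthase, was the next most abundant member per kilobase after COX1 in each of the 4 libraries. Its noPRP counts were 24909 and 24034, and its PRP counts 25410 and 57994. In CPM per kilobase these were 1666, 1554, 1553 and 4250, so 3 libraries were nearly level and PRP replicate 2 stood above them. ATP8, a small membrane subunit of the same enzyme, had noPRP counts of 4640 and 4319 and PRP counts of 4348 and 6157. Its level was 983 ± 73.1 CPM per kilobase in noPRP and 1195 ± 437 in PRP (SD, n = 2 each).

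CYTB, the cytochrome b core of complex III, had noPRP counts of 32279 and 32867, and PRP counts of 23357 and 62686. It was at 1289 and 1269 CPM per kilobase in noPRP and at 852 and 2743 in PRP. The PRP libraries thus bracketed the noPRP libraries, and they were further apart for CYTB than for any other member, by 1.69 on the log2 scale.

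**Figure D2:**
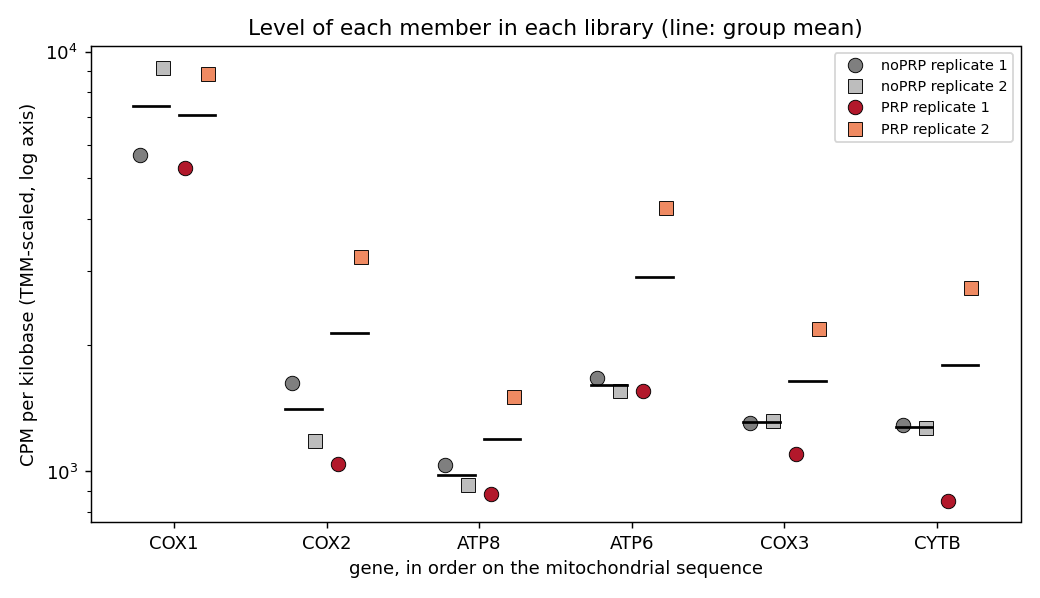
Level of each member (CPM per kilobase, TMM-scaled, log axis) in each library; points are libraries and horizontal lines are group means. For COX2, ATP8, ATP6, COX3 and CYTB the highest and lowest points are both PRP libraries; COX1 is highest in noPRP replicate 2.

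Per kilobase, the order of the members was the same at the top in each library and changed below. COX1 was first and ATP6 second in each library, at 7252 ± 2046 and 2256 ± 1331 CPM per kilobase over the 4 libraries (SD, n = 4). COX2 followed at 1773 ± 1009, CYTB at 1538 ± 828, COX3 at 1478 ± 484 and ATP8 at 1089 ± 284. COX2, CYTB and COX3 exchanged places between libraries, so these neighbours did not differ beyond their spread. ATP6 led COX2 only narrowly in noPRP replicate 1, at 1666 against 1628 CPM per kilobase. ATP8 was last in 3 libraries, and CYTB was last in PRP replicate 1. The place of ATP8 depended on the length used. Reads on the 43 shared bases, and reads that only reached into them, could be assigned to neither gene and were dropped. With those bases left out of its length, ATP8 was at 1379.6 ± 359. It then ranked 4, 6, 3 and 6 in noPRP replicates 1 and 2 and PRP replicates 1 and 2. That length makes up for only part of the dropped reads, so the place of ATP8 stays uncertain. COX1 and ATP6 kept their places with that length. Reads that crossed from any member into an adjoining gene were dropped as well, so each level per kilobase carries a loss that was not measured.

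As a share of the summed counts per kilobase of the 13 mitochondrial messenger RNA genes, COX1 took 31.6% and 46.7% in noPRP and 35.5% and 27.5% in PRP. The groups overlapped (39.1% ± 10.7 and 31.5% ± 5.7, SD, n = 2 each). Of the 6 members, 1 had a share that did not overlap between groups, beside 46.9% of all tested genes on the log2 CPM scale: ATP6, with 9.25% and 7.91% in noPRP and 10.4% and 13.2% in PRP. ND2 of complex I did not overlap either, so this is nothing particular to ATP6. An exact two-sided permutation test of 2 against 2 libraries gave p = 0.333 for ATP6, the smallest value this design allows. The share of COX3 moved least, from 6.72% to 7.40% over the 4 libraries.

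No member passed the test between cells cultured with and without PRP. In edgeR's quasi-likelihood test over 12707 genes, 0 of 6 members had an adjusted p under 0.05, against 0.858% of all tested genes. At an unadjusted p under 0.05 the count was also 0 of 6, against 13.3% of tested genes, and DESeq2 and limma-voom called 0 of 6. Fitted log2 fold changes of PRP over noPRP were positive for 5 of 6 members, against 51.1% of tested genes. Their median was 0.41, beside 0.04 over all tested genes. Being transcribed on shared precursors, the members are not separate observations.

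ATP6 had the largest fitted change, 0.85 on the log2 scale (SE 0.83, adjusted p = 0.638 in edgeR), with a 95% confidence interval from −0.94 to 2.64. COX2 was at 0.61 (SE 0.84, edgeR adjusted p = 0.737) and CYTB at 0.49 (SE 0.85, edgeR adjusted p = 0.791). COX3 and ATP8 were at 0.33 and 0.28, and COX1 at −0.07 (SE 0.86, edgeR adjusted p = 0.973). The interval for COX1 ran from −1.91 to 1.77, so changes of more than 2-fold in either direction lay inside it. These intervals mean that the libraries did not resolve a difference, and they do not show that levels were equal.

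**Figure D3:**
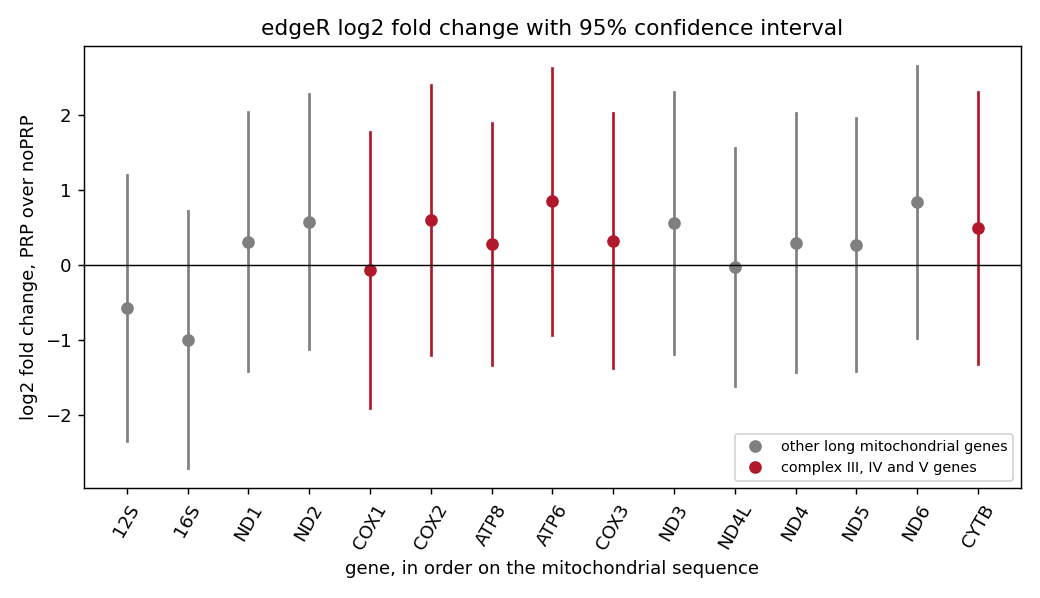
edgeR log2 fold change of PRP over noPRP (vertical axis) for the 15 mitochondrial genes of at least 200 bases, in order on the sequence; points are fitted values and lines are 95% confidence intervals. All 15 intervals cross 0; the members, in red, lie between −0.07 and 0.85.

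The positive values of 5 members rested on PRP replicate 2. Without that library, log2 fold changes were −0.01 for ATP6, −0.11 for ATP8, −0.21 for COX3, −0.40 for COX2 and −0.54 for CYTB, and 0 of 6 members were positive. Without PRP replicate 1 they were positive for 6 of 6, with a median of 0.91. COX1 was positive without PRP replicate 1 (0.25) and without noPRP replicate 2 (0.30). None of the members had groups that did not overlap on the log2 CPM scale, against 46.9% of all tested genes.

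The replicates lay closer together in noPRP than in PRP for each of the 6 members. On the log2 CPM scale, the noPRP libraries differed by 0.02 for COX3, 0.02 for CYTB, 0.10 for ATP6 and 0.15 for ATP8. Of all tested genes, 1.10% had a smaller difference than COX3, and 8.51% a smaller one than ATP8. COX2 and COX1 differed more, by 0.46 and 0.69, with noPRP replicate 2 lower for COX2 and higher for COX1. Between the PRP libraries the differences were 0.74 for COX1, 0.76 for ATP8, 0.99 for COX3, 1.45 for ATP6, 1.64 for COX2 and 1.69 for CYTB, with replicate 2 higher for all 6. The median over the members was 0.13 in noPRP and 1.22 in PRP, beside 0.98 and 0.87 over all tested genes. Neither these medians nor the percentages for single members were matched for abundance.

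A pattern of highest in PRP replicate 2 and lowest in PRP replicate 1 was shared by 5 of 6 members, all but COX1. It was found in 4.64% of all tested genes and in 5 of the 7 complex I genes. Mitochondrial genes are transcribed on shared precursors, so these genes are not separate observations. The lower normalization factor of PRP replicate 2 raises every gene's scaled level in it by the same factor. As a plain percentage of all counts, PRP replicate 2 was still the highest library and PRP replicate 1 the lowest for COX2 (0.187% and 0.0712%), ATP8 (0.0258% and 0.0181%), ATP6 (0.243% and 0.106%), COX3 (0.145% and 0.0863%) and CYTB (0.263% and 0.0971%).

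Summed over the 6 members, counts were 301546 and 424520 in noPRP and 287367 and 480040 in PRP. This was 1.5002% and 2.03% of all counts in noPRP and 1.19% and 2.01% in PRP, so each group held a low and a high library. Means were 1.76% ± 0.37 for noPRP and 1.604% ± 0.58 for PRP (SD, n = 2 each; exact two-sided permutation p = 0.667). The sign of this difference depended on the denominator: per TMM-scaled library it was 1.62% in noPRP and 1.79% in PRP. Of mitochondrial counts alone, the members held 62.6% and 76.2% in noPRP and 69.5% and 69.9% in PRP.

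Ratios between members within a library do not depend on its depth or scaling. Over the 4 libraries, the 15 ratios of counts per kilobase had a median SD of 0.35 on the log2 scale, against a median of 1.28 over all pairs of tested genes. This comparison was not matched for abundance: the members ranked from 4 (COX1) to 700 (ATP8) among the tested genes. COX3 to ATP8 was the steadiest pair, with ratios of 1.26 and 1.42 in noPRP and 1.24 and 1.46 in PRP. CYTB to COX2 came next (SD 0.20), at 0.792 and 1.07 in noPRP and 0.818 and 0.847 in PRP.

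The 3 most variable ratios were those of COX2, ATP6 and CYTB to COX1 (SD 0.66, 0.61 and 0.52). COX2 stood at 0.286 and 0.129 of COX1 in noPRP and at 0.197 and 0.365 in PRP. COX3 stood at 0.229 and 0.144 of COX1 in noPRP and at 0.208 and 0.247 in PRP. For ATP6 the ratio to COX1 was 0.293 and 0.170 in noPRP and 0.293 and 0.479 in PRP. CYTB was at 0.227 and 0.138 of COX1 in noPRP and at 0.161 and 0.309 in PRP. In each of these 4 ratios noPRP replicate 2, the library with the most COX1, was the lowest and PRP replicate 2 the highest.

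Of the 15 ratios, 4 did not overlap between the groups, against 48.9% of all pairs of tested genes, and all 4 involved ATP6. Sharing that gene, the 4 are not separate observations. Among the 13 mitochondrial messenger RNA genes, 16 of 78 pairs did not overlap, these 4 included. ATP6 was higher in PRP relative to COX1, ATP8, COX3 and CYTB. The log2 ratio of ATP6 to COX1 was −2.17 ± 0.56 in noPRP and −1.41 ± 0.50 in PRP (SD, n = 2 each), and the nearest libraries of the groups, noPRP replicate 1 and PRP replicate 1, were both at −1.77. ATP6 to ATP8, which share a messenger, was 1.61 and 1.67 in noPRP and 1.75 and 2.83 in PRP. Reads touching both of these genes were dropped, so this ratio also depends on how the reads were counted. The same holds for COX3 to ATP6, whose genes touch. COX3 to ATP6 was 0.783 and 0.849 in noPRP and 0.709 and 0.515 in PRP, and CYTB to ATP6 was 0.774 and 0.816 against 0.549 and 0.645. Each of the 4 had p = 0.333 in the exact two-sided permutation test, the smallest possible, and 1 after Benjamini-Hochberg adjustment over the 15 ratios. The difference in log2 ratio between groups was 0.75 for ATP6 to COX1, or 0.40 without PRP replicate 2 and 0.36 without noPRP replicate 2. For ATP8 to ATP6 it was −0.44, or −0.10 without PRP replicate 2 and −0.79 without PRP replicate 1. For COX3 to ATP6 it was −0.43, or −0.20 without PRP replicate 2 and −0.66 without PRP replicate 1, and for CYTB to ATP6 it was −0.42, within −0.53 and −0.30 with any library left out.

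**Figure D4:**
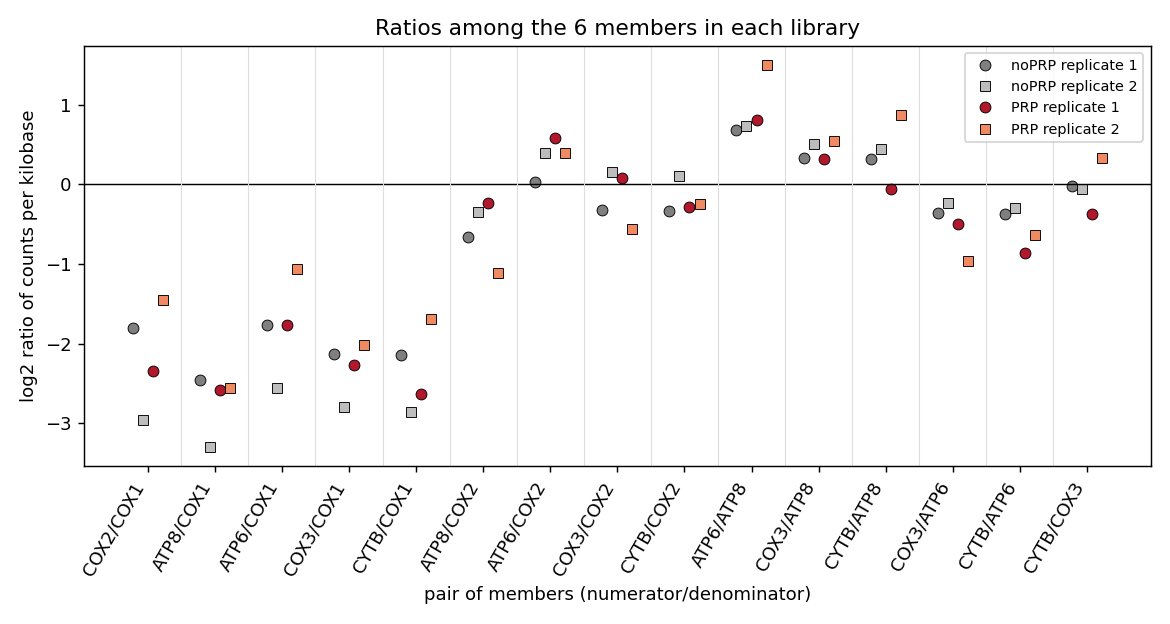
log2 ratio of counts per kilobase (vertical axis) for each of the 15 pairs of members (horizontal axis), 1 point per library. The 5 ratios to COX1 lie below 0 in each library, and the points of COX3/ATP8 lie closest together.

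The short gene that follows COX1 lies 2 bases after it on the other strand, at positions 6898 to 6966, and is of transfer RNA length (69 bases). It held 42.4% to 63.1% of the counts of the 22 mitochondrial genes under 200 bases. Its counts were 1887 and 1118 in noPRP and 1280 and 4508 in PRP. Per kilobase this was 21.9% and 7.77% of the COX1 level in noPRP and 14.6% and 36.7% in PRP. It was lowest in noPRP replicate 2, the library in which COX1 was highest. The counting ignored strand, so reads from the end of a COX1 transcript and from this gene cannot be told apart. Reads that also touched COX1, or the next short gene from position 6970, were dropped. The level per kilobase of so short a gene is therefore not comparable with that of COX1. The fitted change of the short gene was 1.04 on the log2 scale (SE 0.85, adjusted p = 0.578 in edgeR), and −0.31 without PRP replicate 2, so its sign rested on that library. PRP replicate 1 lay between the noPRP counts.

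The other mitochondrial genes gave the same count of calls. Of the 7 complex I genes, 0 passed in edgeR at an adjusted p under 0.05 and 0 at an unadjusted p under 0.05, with 6 fitted changes positive, 1 negative and a median log2 fold change of 0.31. Without PRP replicate 2, 1 was positive and the median was −0.17. Both ribosomal RNA genes had negative fitted changes (−0.57 and −0.999), and neither passed; without noPRP replicate 1 the signs were 1 positive and 1 negative. Of the 22 shorter genes, 18 were tested, 0 passed, 2 had an unadjusted p under 0.05, and 16 fitted changes were positive. Without PRP replicate 2, 6 of 17 tested were positive.

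The mean profile of the members over the 4 libraries, each gene centred on its own mean log2 CPM, was −0.14, −0.15, −0.46 and 0.75 in noPRP replicates 1 and 2 and PRP replicates 1 and 2. COX3 was the member nearest to it, with a root mean square difference of 0.08, and COX1 the farthest, at 0.35. Among 10472 nuclear genes with an average log2 CPM of at least 1, the nearest was a gene with 9 exons on chromosome 2 at positions 93007847 to 93016119 (0.05). Its noPRP counts were 616 and 668, its PRP counts 546 and 1004. The next were a gene with 4 exons on the X chromosome at positions 50891619 to 50899604 and a gene with 2 exons on chromosome 14 at positions 99081657 to 99083818, both at 0.05. Over 4 libraries such likeness is easily met: 12 nuclear genes lay nearer to the mean profile than COX3, and 691 lay nearer than COX1.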

How the data were processed

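Raw read counts per gene were deposited by the authors as a table for each library. The submitters' processing notes name STAR 2.7.2a, featureCounts 1.6.5 and the OryCun2.0 genome. Per the file headers, reads on the exons of each Ensembl release 98 gene were counted, and options for strand, pairs, multiple alignments or overlaps were not set. The program's defaults then ignore strand, count both ends of a pair and drop reads that align to several places or touch 2 genes. Dropping reads that touch 2 genes lowers the overlapping ATP8 and ATP6. It also removes reads that cross from any member into an adjoining gene, and this loss was not measured. Per the labels' protocols, RNA was enriched for messenger RNA on magnetic beads before an Illumina TruSeq preparation. A deposited table of the whole series held the same counts (0 library columns differed) and was not used.

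Of 29587 genes, 12707 passed filterByExpr; they were scaled by TMM and tested with edgeR 4.0.16 in R 4.3.3 (glmQLFit, glmQLFTest, group as the only term, Benjamini-Hochberg over the tested genes). Standard errors were computed from the F statistic. A gene had 2 residual degrees of freedom against 11.4 (median) borrowed from the other genes, so its error rested largely on them. Single values were compared by exact permutation over libraries. Alternatives included DESeq2 1.42.0 and limma 3.58.1 (voom). The edgeR fit was tested on simulated data. The named genes were the 6 members and the 3 nuclear genes with the nearest profile. Members and lists were chosen with earlier results of these data known. Marker lists for tendon and other cell types were not used, because the identifiers have no symbols. The labels give no pairing of same-numbered libraries and do not explain the alignment names in the file headers; each table was assigned to its sample by the record it was deposited under.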

Additional observations from a re-analysis of the deposited data

How the results depend on the processing

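With 2 libraries a group, 1 library can turn most of these results, and none of the members' fold changes passed 5% in the 12 alternatives fitted for them. Leaving out each library in turn gave log2 fold changes of −0.0101 (without PRP replicate 2) to 1.38 for ATP6, −0.11 to 0.60 for ATP8, −0.44 to 0.30 for COX1, −0.40 to 1.18 for COX2, −0.21 to 0.73 for COX3 and −0.54 to 1.09 for CYTB. The other 8 alternatives kept the sign of each, which says little where values were small. With total counts only, ATP8 was at 0.0067, COX3 at 0.043 and COX1 at −0.34. CYTB, COX2 and ATP6 were then at 0.18, 0.30 and 0.55. With total counts only, which moved the median log2 fold change of all genes from 0.04 to −0.21, the median of the members was 0.11. Without a filter the median of all genes was 0.20.

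The difference in the members' summed share of counts, −0.16 percentage points in PRP, was 0.17 per TMM-scaled library and 0.32 per mitochondrial count, and −0.57 to 0.25 with a library left out. With a library left out, differences in log2 ratio ranged from −0.0948 to 1.05 for COX2 to COX1 and from −0.0167 to 0.66 for COX3 to COX1. They ranged from −0.14 to 0.80 for CYTB to COX1, from 0.36 to 1.15 for ATP6 to COX1 and from −0.79 to −0.10 for ATP8 to ATP6. Other lengths cancel in these differences, and 0.5 added to each count is small beside the members' counts. Those settings could change no sign, so they are no test of the ratios.

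Over all genes, 109 were called (68 higher, 41 lower). The count was 60 with upper-quartile normalization (46 and 14), 565 without a filter (230 and 335), 712 with DESeq2 (295 and 417), and 114 to 571 with a library left out. The highest was without noPRP replicate 1 (138 higher, 433 lower), and without PRP replicate 1 it was 165. The cause was not tested. With the replicate number as a block 57 genes were called (46 and 11) and 0 of 6 members. The labels do not pair the libraries, and across genes the correlation between same-numbered libraries' deviations from their group means was −0.63. A crossed pairing block, chosen after seeing the data, called 3588 genes, 28.2% of those tested, and 0 of 6 members.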
